A study of Mus musculus with 6 samples.

Results

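Inflammasomes are protein platforms in the cytosol that answer danger signals. A sensor such as NLRP3, AIM2 or NLRC4 gathers, directly or through the adaptor ASC, the protease caspase-1, which matures the cytokines IL-1β and IL-18 and cuts gasdermin D into a fragment that forms pores in the plasma membrane. The lytic death that follows is called pyroptosis, and crystals of uric acid are a known trigger of NLRP3. Messenger RNA of 10 genes of this pathway was examined, out of 55450 genes in the table of counts. They were chosen by name and role, with earlier results of these data known. The sensors were Nlrp3, Aim2 and Nlrc4, the adaptor Pycard, the proteases Casp1 and Casp4, and the pore former Gsdmd. The cytokines were Il1b and Il18, and Il1rn encodes the antagonist of the IL-1 receptor. These are messenger RNA levels, so cleavage of caspase-1, gasdermin D or IL-1β was not measured.

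The study asked how hyperuricemia-related chronic kidney disease (CKD) develops. Kidneys came from male, wild-type C57BL/6J mice that were bought at 7 weeks of age and acclimatised for 1 week. On day 21, mice had received 2.4 g/kg of potassium oxonate, an inhibitor of uricase, together with adenine at 0.16 g/kg, by gavage each day, and the day-0 group is labelled as the control with 20% PEG. Each group was sequenced in 3 mice, and no group with adenine alone or oxonate alone was analysed here. The label gives no vehicle for day 21, and whether the controls were untreated or given PEG by gavage is not clear from it. The 2 agents, the vehicle and any difference in gavage or age cannot be told apart.

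In these kidneys, 8 of the 10 genes were higher on day 21, Nlrc4 was lower, and Il18 did not pass the test. The rise was widest for Il1rn (43.6-fold), and those of Casp4 (7.40-fold) and Aim2 (5.39-fold) came next. The order after Il1rn rested on single mice, since without day-0 mouse 2 Aim2 (log2 fold change 3.11) passed Casp4 (2.51), and without day-0 mouse 1 Aim2 (2.17) stood under Pycard (2.30). Differentially expressed genes (DEGs) had to change by more than 1.5-fold with an adjusted p below 0.05 in the quasi-likelihood test of edgeR, the adjustment being that of Benjamini and Hochberg across 16592 genes. All 10 genes were among those tested. On their day-0 counts alone, Nlrp3, Aim2, Casp1, Casp4 and Il1rn would not have passed the filter for low counts, so being tested depended on their day-21 level. Levels are normalised counts, CPM, scaled to 1000000 counts per library. By the same rule, 35.1% of all tested genes were called, 19.6% as higher and 15.5% as lower. With libraries scaled by their size alone the split over all genes was 5985 higher and 1338 lower. Of the 10 genes, 8 were then again higher and 0 were lower, as the call of Nlrc4 was lost. The median log2 fold change of the 10 genes was 1.96, against 0.03 over all tested genes.

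**Figure D1:**
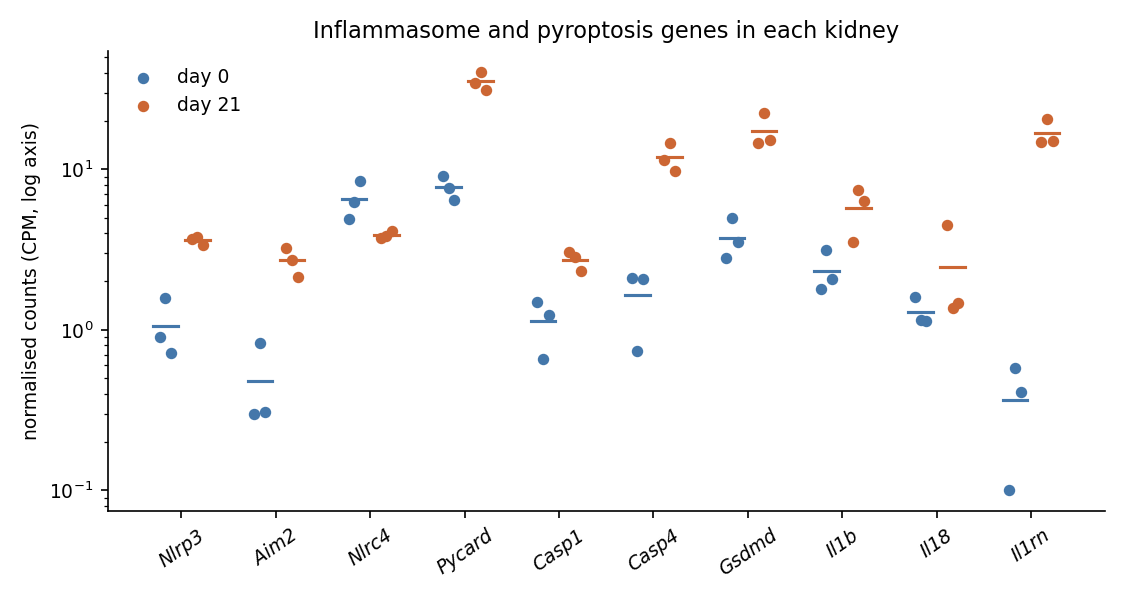
Normalised counts (CPM, log axis) of the 10 genes in each kidney, with 3 mice on day 0 in blue, 3 mice on day 21 in orange, and a line at each mean. The points of the 2 days are apart for all genes but Il18, and only Nlrc4 lies lower on day 21. Such a separation was seen in 57.1% of all tested genes.

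The stretches of genome before the transcription start were read for every one of the 10 genes that had an entry. RefSeq windows on GRCm38.p6, from 250 bases before the start to 50 after it, were found for 9 of the 10 genes, in 13 windows, and Gsdmd had no entry. Motifs were searched on both strands. A window with a match is shown for each of the 5 genes that had any, with the matching letters in capitals.

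Casp4 (chr9:5308599-5308898, plus strand): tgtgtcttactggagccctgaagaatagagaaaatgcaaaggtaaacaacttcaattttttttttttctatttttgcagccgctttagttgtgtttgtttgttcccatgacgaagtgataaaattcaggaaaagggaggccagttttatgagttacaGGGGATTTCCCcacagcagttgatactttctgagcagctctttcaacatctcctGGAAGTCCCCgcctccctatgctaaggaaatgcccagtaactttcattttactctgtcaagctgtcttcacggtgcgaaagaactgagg
Nlrp3 (chr11:59541319-59541618, plus strand): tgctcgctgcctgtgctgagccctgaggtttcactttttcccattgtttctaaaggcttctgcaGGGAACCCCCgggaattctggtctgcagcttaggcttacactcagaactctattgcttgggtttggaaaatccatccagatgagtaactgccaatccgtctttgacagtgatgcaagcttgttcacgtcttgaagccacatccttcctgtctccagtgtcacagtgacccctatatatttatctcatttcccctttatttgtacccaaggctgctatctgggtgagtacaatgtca
Il1rn (chr2:24336610-24336909, plus strand): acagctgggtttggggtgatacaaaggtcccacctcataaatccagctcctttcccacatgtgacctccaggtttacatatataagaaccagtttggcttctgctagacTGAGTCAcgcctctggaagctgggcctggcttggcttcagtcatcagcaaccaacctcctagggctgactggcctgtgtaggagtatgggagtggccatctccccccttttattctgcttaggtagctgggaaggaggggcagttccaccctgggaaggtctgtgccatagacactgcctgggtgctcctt
Aim2 (chr1:173420354-173420653, plus strand): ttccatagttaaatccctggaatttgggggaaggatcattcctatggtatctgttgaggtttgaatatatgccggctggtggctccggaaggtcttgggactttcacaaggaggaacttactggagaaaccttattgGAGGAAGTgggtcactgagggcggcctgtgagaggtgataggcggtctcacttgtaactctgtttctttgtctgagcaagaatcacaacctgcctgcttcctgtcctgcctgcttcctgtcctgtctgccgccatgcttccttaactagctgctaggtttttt
Pycard (chr7:127993818-127994117, minus strand): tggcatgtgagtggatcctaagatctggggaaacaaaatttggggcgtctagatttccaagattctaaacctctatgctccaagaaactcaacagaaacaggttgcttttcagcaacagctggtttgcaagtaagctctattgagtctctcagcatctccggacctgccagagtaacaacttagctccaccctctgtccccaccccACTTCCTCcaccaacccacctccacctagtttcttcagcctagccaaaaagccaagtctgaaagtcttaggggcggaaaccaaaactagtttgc

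The capitals mark NF-kappaB-type matches in Casp4 and Nlrp3, an AP-1-type match in Il1rn and PU.1-type matches in Aim2 and Pycard. NF-kappaB, AP-1 and PU.1 are transcription factors used widely by myeloid cells. Casp4 held 3 NF-kappaB-type matches in this window, at -93, -92 and -39 from the start, of which the first and the next overlap in 1 run of capitals. The single match of Nlrp3 lay at -186 and belongs to its window 2, while window 1 held none. The AP-1-type letters TGANTCA stood at -141 in window 1 of Il1rn, whose windows 2 and 3 held none of the motifs, and the PU.1-type letters GAGGAAGT stood at -113 in Aim2 and, on the other strand, at -44 in Pycard. Of all 32851 mouse windows, 8.46% held an NF-kappaB-type match, 7.81% an AP-1-type match and 3.20% a PU.1-type match. No match was found for the interferon-response-type motif, present in 3.44% of all windows, or for the GAS-type letters TTCNNNGAA, present in 8.30%. The windows of Il1b, Il18, Casp1 and Nlrc4 held none of the 5 motifs. A match describes letters only, and binding was not measured.

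Libraries held between 10963849 and 14333311 counts. Thus 3 counts, taken as the lowest visible level, stood for 0.209 to 0.274 CPM before normalisation and 0.179 to 0.309 CPM after it. The share of counts from mitochondrially encoded genes was 9.39 to 9.86% on day 0 and 3.82 to 4.42% on day 21. Defining genes of kidney were present, as proximal tubule genes summed to 8496 to 9072 CPM on day 0 and Umod stood at 3989 to 5421 CPM. All 5 proximal tubule markers fell by day 21, to a sum of 1648 to 1906 CPM, and Slc34a1 had a log2 fold change of -2.47. All 10 macrophage markers rose, from a sum of 168 to 219 CPM to 1001 to 1320 CPM. The pan-leukocyte gene Ptprc rose from 8.16 to 10.7 CPM to 53.3 to 57.7 CPM, and all 6 T cell markers rose. On day-0 counts alone, Itgam among the macrophage markers and the T cell markers Cd3d, Cd3e, Cd3g and Cd8a would not have passed the filter. Being tested thus depended on their day-21 level. Over all tested genes, 19.6% were called higher and 15.5% lower. The part of these markers in the results on the 10 genes was not tested. In whole kidney, fewer cells of a type and less RNA per cell cannot be told apart.

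The sensors moved in both directions. Nlrp3 (gene ENSMUSG00000032691.14, GRCm38 chr11:59541568-59566956, plus strand) encodes the sensor of crystals, ATP and potassium efflux. Its counts went from 9, 19 and 7 to 52, 63 and 55, that is 0.902, 1.57 and 0.721 CPM against 3.68, 3.76 and 3.37 CPM. Every day-21 mouse was above every day-0 mouse, a separation seen in 57.1% of all tested genes, upward in 30.7% and downward in 26.4%. The mean went from 1.06 ± 0.445 to 3.60 ± 0.205 CPM (SD, n = 3 per day), a log2 fold change of 1.73 (SE 0.36, 95% interval 0.92 to 2.53, edgeR adjusted p = 0.00308).

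Aim2 (ENSMUSG00000037860.15, chr1:173350879-173466040, plus strand), the sensor of double-stranded DNA in the cytosol, was near the lowest visible level on day 0, with 3, 10 and 3 counts. On day 21 it held 46, 46 and 35 counts. In CPM these were 0.301, 0.824 and 0.309 against 3.25, 2.74 and 2.14, without overlap. The log2 fold change was 2.43 (SE 0.47, 95% interval 1.40 to 3.47, edgeR adjusted p = 0.00183). Without day-0 mouse 2, which held 10 counts, it was 3.11 (edgeR adjusted p = 0.002).

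Nlrc4 (ENSMUSG00000039193.9, chr17:74425438-74459142, minus strand), which answers bacterial flagellin and secretion systems together with NAIP proteins, was the member called lower. Its CPM were 4.91, 6.26 and 8.45 on day 0 and 3.75, 3.82 and 4.10 on day 21. The groups were apart after normalisation, while the raw counts (49, 76 and 82 against 53, 64 and 67) overlapped. In the fit, the log2 fold change was -0.75 (SE 0.26, 95% interval -1.32 to -0.17, edgeR adjusted p = 0.0367). This call was lost in 7 of 15 alternative fits. With library size alone the log2 fold change was -0.36 (edgeR adjusted p = 0.263) and with upper quartile scaling -0.66 (edgeR adjusted p = 0.0608). Without day-0 mouse 2 or 3, or without any mouse of day 21, edgeR's adjusted p ran from 0.0638 to 0.121. The log2 fold change was -0.55 without day-0 mouse 3 and between -0.72 and -0.79 in the other 4 of these fits.

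The adaptor had the tightest interval. Pycard (ENSMUSG00000030793.4, chr7:127989708-127993867, minus strand) encodes ASC, which links sensors to caspase-1 and assembles into the ASC speck. Its CPM were 9.12, 7.67 and 6.39 on day 0 and 34.3, 40.5 and 31.2 on day 21, from 62 to 93 counts and 485 to 679 counts. The 3 day-21 kidneys were all higher, and the mean went from 7.73 ± 1.37 to 35.3 ± 4.75 CPM (SD, n = 3 per day). This gave a log2 fold change of 2.19 (SE 0.17, 95% interval 1.81 to 2.57, edgeR adjusted p = 7.3e-06), which lay between 2.06 and 2.58 in all 15 alternative fits. Of its exon bases, 12.8% lie within Gm45205 on the other strand, and the strand setting of the counting is not given in the sources used here.

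Both proteases rose. Casp1 (ENSMUSG00000025888.5, chr9:5298517-5307265, plus strand), the protease of the canonical inflammasome, went from 15, 8 and 12 counts to 43, 48 and 38. These were 1.5, 0.659 and 1.24 CPM against 3.04, 2.86 and 2.33 CPM, without overlap. The fitted log2 fold change was 1.29 (SE 0.39, 95% interval 0.43 to 2.15, edgeR adjusted p = 0.0202). The call was lost without day-0 mouse 2 (0.99, edgeR adjusted p = 0.0628), without day-21 mouse 1 (1.21, edgeR adjusted p = 0.0682) and without day-21 mouse 2 (1.25, edgeR adjusted p = 0.061).

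Casp4 (ENSMUSG00000033538.13, chr9:5308828-5336783, plus strand), whose mouse product is also known as caspase-11, binds bacterial lipopolysaccharide and cuts gasdermin D without caspase-1. It lies next to Casp1 on the same strand, and NF-kappaB-type matches stood in its promoter window shown above, as in that of Nlrp3. Its counts went from 21, 9 and 20 to 161, 243 and 160. In CPM it stood at 2.11, 0.742 and 2.06 against 11.4, 14.5 and 9.80, far apart. The log2 fold change was 2.89 (SE 0.34, 95% interval 2.12 to 3.65, edgeR adjusted p = 8.9e-05), and the call held in all 15 alternative fits.

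Gsdmd (ENSMUSG00000022575.5, chr15:75862327-75867408, plus strand), the pore former that both proteases cut, rose as well. It held 2.81, 4.95 and 3.50 CPM on day 0 and 14.6, 22.3 and 15.3 CPM on day 21, from 28 to 60 counts and 206 to 373 counts. Day-21 mouse 2 was the highest of the 6 kidneys, and no day-21 kidney reached down to the day-0 range. In the fit, the log2 fold change was 2.19 (SE 0.26, 95% interval 1.62 to 2.77, edgeR adjusted p = 8.0e-05).

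**Figure D2:**
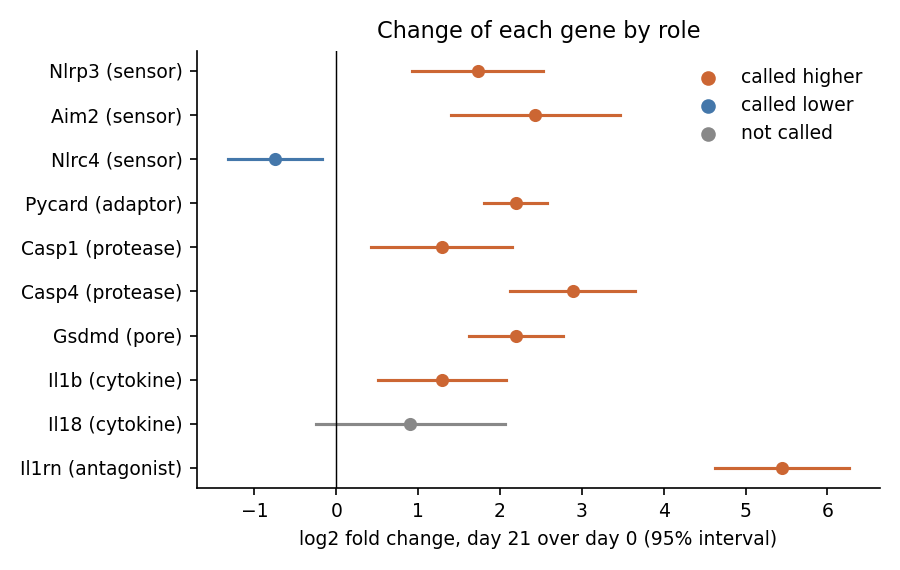
Log2 fold change, day 21 over day 0, with its 95% interval for the 10 genes, by role, from edgeR's fit of 3 against 3 mice. Orange marks genes called higher, blue lower and grey not called, and the interval of Il18 (-0.25 to 2.06) is the one that crosses 0.

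Of the cytokines, Il1b passed the test and Il18 did not. Il1b (ENSMUSG00000027398.13, chr2:129364570-129371139, minus strand) encodes the precursor of IL-1β, whose transcription is induced by priming signals. Its CPM were 1.80, 3.13 and 2.06 on day 0 and 3.53, 7.40 and 6.31 on day 21, from 18 to 38 counts and 50 to 124 counts. The days were apart, although day-21 mouse 1 lay close to the day-0 range. This gave a log2 fold change of 1.29 (SE 0.35, 95% interval 0.51 to 2.07, edgeR adjusted p = 0.0124). Without day-21 mouse 2 it was 1.07 and the call was lost (edgeR adjusted p = 0.0569). Neutrophils are a known source of IL-1β, and of their 8 markers S100a8 and S100a9 fell, Csf3r rose, Cxcr2 did not pass the test and 4 were not tested. The neutrophil sum went from 16.0 to 26.0 CPM on day 0 to 11.3 to 12.4 CPM on day 21, S100a8 had a log2 fold change of -1.97, Ly6g held at most 4 counts in any mouse, and Mpo and Elane were at 0 in all 6 mice. Their part in the Il1b result was not tested.

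Il18 (ENSMUSG00000039217.13, chr9:50554827-50581840, plus strand) encodes the other cytokine that caspase-1 matures. Its counts went from 16, 14 and 11 to 64, 23 and 24, that is 1.60, 1.15 and 1.13 CPM against 4.52, 1.37 and 1.47 CPM. Only day-21 mouse 1 stood clear of day 0, and the other 2 day-21 mice lay inside its range. The fitted log2 fold change was 0.90 (SE 0.52, 95% interval -0.25 to 2.06, edgeR adjusted p = 0.183), and a two-sided exact permutation test gave p = 0.3. Without day-21 mouse 1 the log2 fold change was 0.14 (edgeR adjusted p = 0.842). At this depth the interval leaves room for a rise as large as that of Nlrp3 as well as for none.

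Il1rn (ENSMUSG00000026981.15, chr2:24336853-24351494, plus strand) encodes the IL-1 receptor antagonist, which occupies the receptor without signalling and so opposes IL-1β. Day-0 mice held 1, 7 and 4 counts, the lowest of them under the visible level, and day-21 mice held 209, 345 and 244. In CPM these were 0.1, 0.577 and 0.412 against 14.8, 20.6 and 14.9. Il1rn thus went from the edge of detection to a level far clear of it in every kidney. The log2 fold change was 5.45 (SE 0.37, 95% interval 4.63 to 6.26, edgeR adjusted p = 3.0e-06), and it lay between 5.01 and 5.99 in the 15 alternative fits.

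For the 9 genes other than Il18, two-sided exact permutation tests over the 6 mice gave p = 0.1, the smallest that 3 against 3 allows. This value goes with days that do not overlap, which was so for 57.1% of all tested genes.

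To compare levels between genes, counts were divided by the length of the longest protein-coding transcript and scaled to a sum of 1000000 per library (TPM). On day 0 the order of mean TPM was Gsdmd (3.58), Pycard (3.51), Il1b (2.94), Il18 (2.54), Nlrc4 (2.39), Casp4 (2.00), Casp1 (1.32), Nlrp3 (0.450), Aim2 (0.285) and Il1rn (0.249). The ranges of neighbours in this order overlapped, except between Casp1 and Nlrp3. On day 21 the order was Gsdmd (23.0), Pycard (22.1), Casp4 (19.7), Il1rn (16.1), Il1b (10.1), Il18 (6.54), Casp1 (4.34), Aim2 (2.26), Nlrp3 (2.12) and Nlrc4 (1.95). Here only Il1rn with Il1b, and Casp1 with Aim2, did not overlap as neighbours. Casp4 and Il1rn thus moved up the order, and Nlrc4 moved from the middle to the end. With all exon bases as the length, an alternative added after seeing the data, Pycard stood ahead of Gsdmd on both days (4.43 and 29.1 TPM), Aim2 was last on day 21 (2.42 TPM), and the ranges of Il1rn (9.51 TPM) and Il1b (9.48 TPM) overlapped. In both versions, 9 of the 10 genes had a higher mean TPM on day 21. TPM lack the normalisation used for CPM, and with library size alone the median log2 fold change over all tested genes was 0.42. The share of all genes with a higher mean TPM was not computed. By transcript length, Il18 held 12, 3.72 and 3.94 TPM on day 21, and its days overlapped in normalised CPM.

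**Figure D3:**
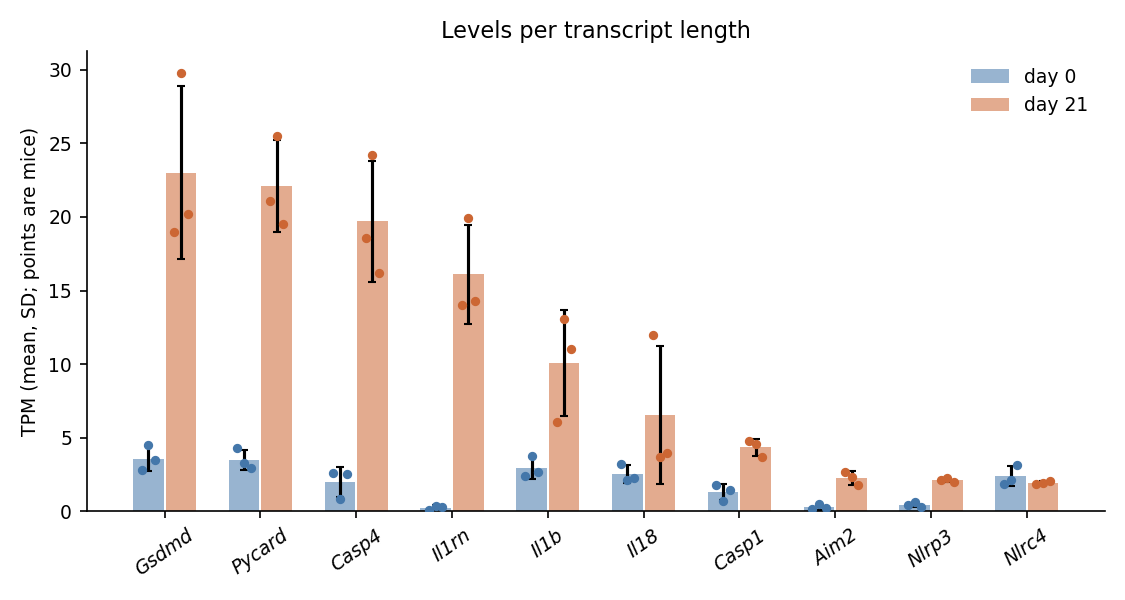
Levels per transcript length (TPM, linear axis from 0) of the 10 genes on day 0 and day 21, in the order of day 21. Bars are means of 3 mice, error bars the SD and points the mice, and Gsdmd (23.0), Pycard (22.1), Casp4 (19.7) and Il1rn (16.1) lead on day 21.

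The balance of antagonist and cytokine transcripts shifted. The TPM of Il1rn over that of Il1b was 0.0305, 0.101 and 0.110 on day 0 and 2.29, 1.52 and 1.30 on day 21. By this length, antagonist transcripts were fewer than cytokine transcripts in each day-0 mouse and more numerous in each day-21 mouse (two-sided exact permutation p = 0.1). The day-21 part of this depends on the length used. With all exon bases as the length, the ratio was 0.0191 to 0.0689 on day 0 and 0.816 to 1.44 on day 21, so that it passed 1 in 1 of the 3 day-21 mice.

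Within-mouse differences of log2 CPM were compared for 5 pairs of genes, which removes the scaling of libraries. The difference of Il1rn minus Il1b was -3.62, -2.36 and -2.19 on day 0 and 2.05, 1.47 and 1.24 on day 21, a shift of 4.31. The difference of Casp4 minus Casp1 was 0.47, 0.16 and 0.71 against 1.89, 2.33 and 2.06, a shift of 1.64. The difference between Casp4 and its neighbour Casp1 was thus larger in every day-21 mouse than in every day-0 mouse. Both shifts had a two-sided exact permutation p of 0.1, the smallest possible, and 0.25 after Benjamini-Hochberg adjustment over the 5 pairs. The shifts of Gsdmd minus Casp1 (0.90, exact permutation p = 0.3), Pycard minus Nlrp3 (0.41, exact permutation p = 0.3) and Il18 minus Il1b (-0.57, exact permutation p = 0.6) were within the overlap of the days.

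The 10 genes were then set beside the macrophage markers, since inflammasome genes are well known in macrophages. The mean log2 CPM of the 10 markers was 2.86, 3.55 and 3.15 on day 0 and 6.10, 6.32 and 6.26 on day 21, a rise of 3.04. Single markers differed, from a fitted log2 fold change of 0.83 for Csf1r to 4.25 for Itgam (1, 10 and 5 counts on day 0). Nlrp3 (1.73), Il1b (1.29), Casp1 (1.29), Pycard (2.19) and Gsdmd (2.19) rose more than Csf1r in the fit. Their direction therefore depends on the markers chosen. Relative to the mean of the 10 markers, a gene with unchanged CPM falls by construction. The median log2 fold change over all tested genes was 0.03, and the share of them that fell relative to the markers was not computed. Within the same mouse, 7 genes were lower relative to the markers in every day-21 mouse than in every day-0 mouse. They were Nlrc4 (a change of -3.75 on the log2 scale), Il18 (-2.36), Il1b (-1.79), Casp1 (-1.74), Nlrp3 (-1.26), Pycard (-0.85) and Gsdmd (-0.83). The days overlapped for Casp4 (-0.09, exact permutation p = 1, SD 1.16 on day 0 and 0.26 on day 21) and for Aim2 (-0.54, exact permutation p = 0.2). Il1rn was the one that gained on the markers, from -5.60, -4.24 and -4.26 to -2.22, -1.95 and -2.35, a change of 2.53. For genes without overlap the two-sided exact permutation p was 0.1, and 0.125 after Benjamini-Hochberg adjustment over the 10 genes. With Ptprc alone in place of the list, every gene shifted upward by the same amount, and 5 in place of 7 were lower in every day-21 mouse. The changes were then -3.23 for Nlrc4, -1.84 for Il18, -1.26 for Il1b, -1.22 for Casp1, -0.74 for Nlrp3, -0.33 for Pycard, -0.31 for Gsdmd and -0.02 for Aim2. Casp4 turned from -0.09 to 0.43, and Il1rn went to 3.05.

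**Figure D4:**
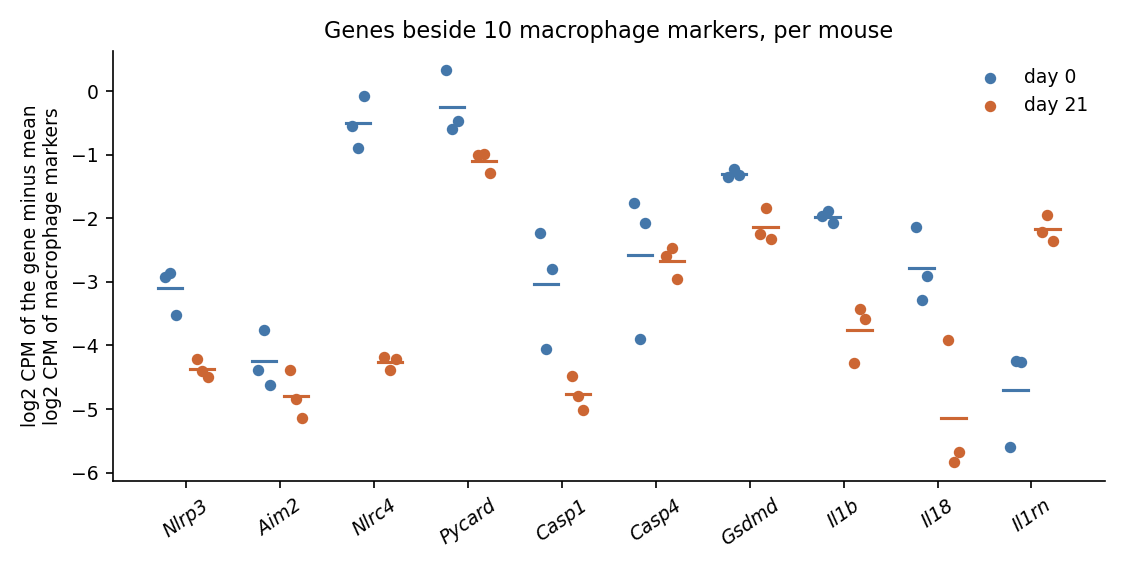
Log2 CPM of each gene minus the mean log2 CPM of 10 macrophage markers in the same mouse, for 3 mice on day 0 (blue) and 3 on day 21 (orange), with lines at the means. Il1rn moved up by 2.53, Casp4 changed by -0.09 and Nlrc4 by -3.75.

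Among 54 other genes of the inflammasome and IL-1 family pathways, 42 were tested, 24 were called higher, 3 lower and 15 not called. The remaining 12 had too few counts to be tested. The median log2 fold change of these 42 genes was 1.03, against 0.03 over all tested genes. Of all tested genes, 19.6% were called higher and 15.5% lower. Naip1, Naip5, Naip6, Nlrp1b, Panx1, Casp12, Il36a, Il18r1, Il18rap and Il1rl1 were among those of the pathway called higher. On day-0 counts alone these genes would not have passed the filter for low counts, so being tested depended on day 21. Without the Naip and Gsdmc genes, which share sequence with close copies, 20 were higher and 3 lower.

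Of 9 other sensors, 7 were tested, of which 5 rose and 1 fell. Naip1, Naip5, Naip6 and Nlrp1b would not have passed the filter for low counts on day 0 alone. Whether they were tested thus depended on their day-21 level. The NAIP proteins recognise bacterial ligands for NLRC4, and Naip1 went from 1, 0 and 0 counts to 22, 16 and 27. The normalised ratio of the summed counts, 65 over 1, was 43.8, with an exact (Clopper-Pearson) 95% interval of 7.58 to 1755 that covers counting error only. The day-0 count came from mouse 1, and without that mouse day 0 was at 0 and the fitted log2 fold change, which then depends on the prior count, went from 5.09 to 7.26. Naip5 rose with a log2 fold change of 2.08 and Nlrp1b, a sensor of protease activity, with 1.88. Of the 50-base words of Naip1 and Naip5, 32.5% and 36.8% occur in other genes, so that reads between these copies are uncertain. The NAIP genes Naip1 and Naip5 thus rose while their partner Nlrc4 was called lower, a call lost in 7 of 15 alternative fits. Nlrp6, known as an epithelial sensor, fell from 58.2, 106 and 85.0 CPM to 36.1, 30.2 and 28.2 CPM, a log2 fold change of -1.40 (edgeR adjusted p = 2.9e-04).

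Of 8 activators, 6 rose and 1 fell. Zbp1, a sensor of Z-form nucleic acids, rose with a log2 fold change of 3.67, from 2.06 to 2.91 CPM to 24.2 to 43.0 CPM. Gbp3, a member of the guanylate-binding proteins, which act on membranes of intracellular bacteria, rose with 3.58, and the channel gene Panx1, through which ATP leaves cells, with 3.55. Txnip, a regulator of thioredoxin that binds NLRP3, fell from 855 to 1100 CPM to 461 to 575 CPM, a log2 fold change of -0.93, and its call was lost with library size alone (-0.53).

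Among 11 other caspases and pore formers, 5 were not tested, and of the 6 tested Casp12 was the single gene called. Over all tested genes, 35.1% were called in either direction. Casp12 belongs to the inflammatory group of caspases and went from 9, 6 and 19 counts to 106, 213 and 172. Its log2 fold change was 3.23 (edgeR adjusted p = 1.3e-04), or 3.88 without day-0 mouse 3. No gasdermin gene besides Gsdmd was called. The other 3 that were tested were Gsdme (0.13), Gsdmc2 (0.65) and Gsdmc3 (-0.21), named after their values were seen.

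Of 7 other ligands, 2 were tested, and these 2 rose. Il36a would not have passed the filter for low counts on its day-0 counts alone, so being tested depended on its day-21 level. Il36a, listed as Il1f6 in older annotation and encoding a cytokine of epithelia, went from 1, 0 and 0 counts to 218, 223 and 141. Its normalised ratio of summed counts, 582 over 1, was 392, with an exact 95% counting interval of 70.1 to 15506. Here too the day-0 count lay in mouse 1, and without it the fitted log2 fold change went from 8.25 to 10.42. Il33, an alarmin stored in nuclei, rose with a log2 fold change of 1.59, from 7.58 to 13.1 CPM to 18.4 to 38.8 CPM. Il1a was not tested, with 6 to 9 counts on day 0 and 9 to 23 on day 21.

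Of 9 receptors and decoys, 6 rose and 1 fell. Il1rl1, the receptor of IL-33, rose from 3 counts in each day-0 mouse to 24, 66 and 45, with a log2 fold change of 3.27 (SE 0.50, edgeR adjusted p = 4.7e-04). The chains of the IL-18 receptor, Il18rap and Il18r1, rose with log2 fold changes of 3.09 and 2.64, while Il18 itself did not pass the test. Sigirr, a brake on IL-1 family receptors, fell with -0.72, a call lost with library size alone (-0.33).

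Of 10 signalling genes downstream of the receptors, 4 rose and none fell, and 6 were not called in the same edgeR test. Irak3, an inhibitory kinase homologue, rose with a log2 fold change of 1.14, Nfkb1 with 0.91 and Myd88, the shared adaptor, with 0.64. The rise of Myd88 stood close to the fold threshold, and its call was lost without day-0 mouse 1 (0.58) or day-21 mouse 1 (0.57).

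**Figure D5:**
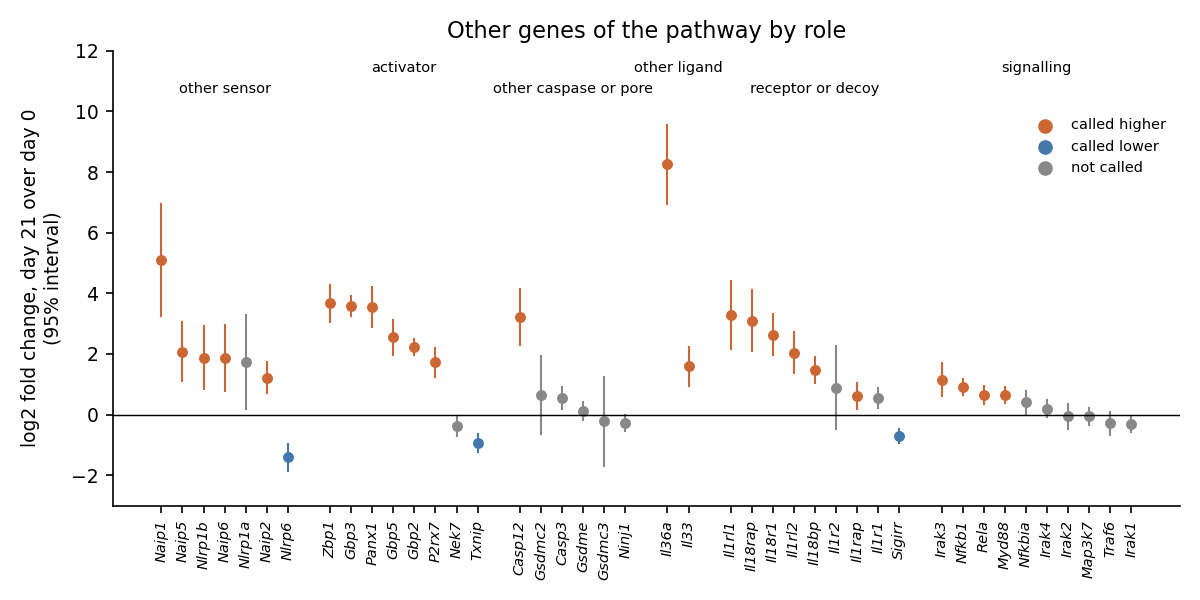
Fitted log2 fold change, day 21 over day 0, with 95% interval for the 42 tested genes of the wider pathway, by role. Orange (24 genes) is called higher, blue (3 genes) lower and grey (15 genes) not called, and the fitted values of Naip1, Il36a and Il1rl1 rest on day-0 counts of 3 or fewer.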

How the data were processed

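Total RNA was extracted with TRIzol and sequenced as paired reads of 150 bases, and the submitters' processing notes name TopHat and mm10. The authors deposited raw counts per gene for each mouse, with no normalisation. The counting program and its strand setting are not given in the sources used here. All 55450 identifiers were found in GENCODE M21 (GRCm38), and no column was left unmapped.

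The tests ran in R 4.3.3 on edgeR 4.0.16 (filterByExpr at min.count 10 and min.total.count 15, TMM scaling, quasi-likelihood test without a replicate block). DEGs had a Benjamini-Hochberg adjusted p under 0.05 and a fold over 1.5, the thresholds of the paper. DESeq2 1.42.0 and limma-voom (limma 3.58.1), other scalings, filters and thresholds, the fit without mitochondrially encoded genes and each mouse left out were alternatives. CPM (counts per 1000000) are normalised by TMM, and 0.5 was added to counts before log2 in comparisons within mice. TPM and sequences were computed in Python 3.11.15. Floors of 3 counts cover counting error only. Scripts were tested on simulated data.

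The members, lists and motifs were chosen with earlier results of these data known. Besides the 10 genes, the text names up to 3 called genes of each role with the widest change, any called against the majority of its role, and the defining markers of the cell types. Within groups, no libraries were duplicates (chi-square per gene 6.78 to 23.6). Each sample was taken as 1 mouse, which the labels do not state outright, so p-values measure only the spread between these samples. Same-numbered mice did not deviate together, with correlations of -0.0255, 0.173 and 0.0984.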

Additional observations from a re-analysis of the deposited data

How the results depend on the processing

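Precision was limited by 3 mice per day and by low counts in Aim2, Casp1, Il18, Nlrp3 and Il1rn on day 0. Of the members, Nlrp3, Aim2, Pycard, Casp4, Gsdmd and Il1rn kept their call in every alternative fit in which they were tested, at the main thresholds. The count of members called lower was 0 with upper quartile scaling, with library size alone and at the stricter thresholds (adjusted p below 0.01, fold above 2), and it ran from 0 to 1 when each mouse was left out. The count called higher was 5 when genes needed a mean of at least 50 counts, since Nlrp3, Aim2 and Casp1 were then not tested. Il18, not called in the main fit, was not tested there either. The count called higher was 6 at the stricter thresholds and ran from 6 to 8 when each mouse was left out. Of the wider pathway, 1 gene was called lower with library size alone and 1 at the strict threshold. Over all genes, 5985 were higher and 1338 lower with library size alone, which moved the median log2 fold change from 0.03 to 0.42 (upper quartile scaling moved it to 0.12), and 1918 and 1254 at the strict threshold. Pecam1, which was not called, went from -0.26 to 0.12 with library size alone. With the replicate block, 8 members were higher and 1 lower, and 3235 genes were higher and 2523 lower in all. Mice with the same number share only that number, and not every mouse correlated best with its own number. The cause of these changes was not tested beyond what their construction shows.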

Other observations

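The remaining lists of cell type markers gave these values, beside 19.6% of all tested genes called higher and 15.5% called lower. None of the 5 dendritic cell markers was called, and Flt3 had a log2 fold change of 0.36 (edgeR adjusted p = 0.474). Of 4 B cell markers, 1 was tested and not called, and Cd79a held 3 to 8 counts on day 0 and 7 to 14 on day 21. Among T cell markers, Cd3e rose with a log2 fold change of 1.86 (edgeR adjusted p = 0.0141), which was 2.79 without day-0 mouse 2 and 1.38 without day-0 mouse 1. The macrophage genes Adgre1 and Csf1r rose with 2.81 and 0.83. Of 6 distal nephron markers 4 fell, and Umod (-0.45) did not reach the fold threshold. Both podocyte markers fell, Nphs1 with -0.97. Of 3 endothelial markers 1 fell, and Pecam1 (-0.26, edgeR adjusted p = 0.306; 0.12 with library size alone) was not called.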
